A study of Mus musculus with 4 samples.

Results

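The Usp17l genes encode a small family of deubiquitinases on mouse chromosome 7. They were taken as every row of the deposited tables whose symbol starts with Usp17l, which gave 5 of 25170 genes: Usp17la, Usp17lb, Usp17lc, Usp17ld and Usp17le. Transcripts had been measured by sequencing polyadenylated RNA in 4 libraries of mouse embryonic stem cells, 1 library per group. SO was a wild-type genotype given an inhibitor treatment, Ldha_KO carried a knockout of Ldha, Ldhb_KO carried a knockout of Ldhb, and WT was the untreated wild type, described as E14. All 4 were grown on gelatin in medium with serum and the cytokine LIF. What SO stands for, how much of it was given and for how long, and how many clones stand behind each knockout is left unsaid by the labels. Ldha and Ldhb encode the A and B subunits of lactate dehydrogenase, and the study asks how this enzyme relates to the 2-cell state of the stem cells.

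Deubiquitinases remove ubiquitin from proteins and so can spare them from degradation or change their activity. The Usp17l enzymes belong to the ubiquitin-specific protease class, which are cysteine proteases. The founding members, Dub-1 (Usp17la) and Dub-2 (Usp17lc), were described as genes that cytokines switch on for a short time in mouse blood cells, and the human relatives form a large multi-copy family. Usp17l transcripts are also among those of the 2-cell embryo, and of the small share of cultured embryonic stem cells that pass through a 2-cell-like state marked by Zscan4 genes and the MERVL retrovirus.

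The genes are close copies of each other in their start regions as well as in their coding parts. A promoter, 250 bases before to 50 after the annotated start, was found in RefSeq (GRCm38.p6) for 4 of the 5 members, all but Usp17le. The windows below, each 159 bases, are shown because all 4 genes share the same arrangement of sequence there, mostly before their annotated starts. Capitals mark the runs of at least 12 bases within the windows that all 4 promoters hold, and the sequences are written 5′ to 3′ on the strand of the gene. A further shared run of 14 bases lies outside the windows. It begins at position 20 and 34 from the start in Usp17la and Usp17lb, but at -24 and -46 in Usp17lc and Usp17ld. The windows lie at chr7:104856845-104857003 (plus strand, Usp17la), chr7:104842581-104842739 (minus strand, Usp17lb), chr7:103416483-103416641 (plus strand, Usp17lc) and chr7:103252582-103252740 (minus strand, Usp17ld).
Usp17la: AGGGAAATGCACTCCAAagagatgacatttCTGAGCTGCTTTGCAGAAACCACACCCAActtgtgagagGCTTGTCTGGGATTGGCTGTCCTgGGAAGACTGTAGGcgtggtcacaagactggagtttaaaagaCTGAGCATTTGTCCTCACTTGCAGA
Usp17lb: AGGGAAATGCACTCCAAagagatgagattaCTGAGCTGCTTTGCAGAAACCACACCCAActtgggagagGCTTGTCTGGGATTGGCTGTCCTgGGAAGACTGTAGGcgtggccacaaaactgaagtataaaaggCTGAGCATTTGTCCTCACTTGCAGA
Usp17lc: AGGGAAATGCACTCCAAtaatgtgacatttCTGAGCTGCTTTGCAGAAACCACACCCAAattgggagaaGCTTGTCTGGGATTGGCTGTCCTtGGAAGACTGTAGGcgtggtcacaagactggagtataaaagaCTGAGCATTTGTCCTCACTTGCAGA
Usp17ld: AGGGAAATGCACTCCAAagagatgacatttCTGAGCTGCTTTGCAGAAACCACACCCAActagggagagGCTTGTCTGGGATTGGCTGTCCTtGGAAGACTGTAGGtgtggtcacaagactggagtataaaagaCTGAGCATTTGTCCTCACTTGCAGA

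The 5 shared runs of the windows cover 107 of the 159 bases, and the longest is 29 bases. Between pairs the windows were 91.8% to 96.9% identical. The letters TATAAA, the core of a TATA box, stood 9 bases before the last shared run of the windows in Usp17lb, Usp17lc and Usp17ld. The search covered both strands of the whole 300-base promoters, and TATAAA was found in 13.6% of the 32851 promoters of the table. At the same place Usp17la read TTTAAA, the substitution A2T with positions counted from the first base of TATAAA. The annotated starts differ relative to this place: the TATAAA began 31 bases before the start of Usp17lb but 88 and 110 bases before those of Usp17lc and Usp17ld. The Dux motif, TGCACAC (Zscan4) and TAATCC (Obox), letters described for transcription factors of the 2-cell stage, were found in 0 of the 4 promoters on either strand. Of all promoters, 0.0335%, 4.40% and 7.06% held them. The absence says only that these letters are not in this window.

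The members also resemble each other in the reads they can give. In GENCODE M21 (GRCm38) the longest coding sequences were 1404 bases in Usp17lb, 1578 in Usp17la, 1626 in Usp17le and 1635 in both Usp17lc and Usp17ld. Usp17lc and Usp17ld were the closest pair, 98.4% identical, and the other pairs were 90.7% to 94.5% identical where gaps are left out. Of the 100-base windows along each longest transcript, 96.2% occurred in no other gene's transcript for Usp17la, 91.3% for Usp17le, 89.4% for Usp17lb, 67.7% for Usp17lc and 60.5% for Usp17ld. With 50-base windows the shares were 79.6%, 69.2%, 78.2%, 55.3% and 48.9% in that order. The sources used here do not give the read length or how reads that match several copies were counted. The split between Usp17lc and Usp17ld is therefore the least certain, and the sum over the family is less exposed to it. The sum does not remove sharing with genes that have no Usp17l symbol. Such genes held 224 of the 2607 50-base windows of Usp17la, 172 of 1509 of Usp17lb and 134 of 1836 of Usp17le. For Usp17lc they held 111 of 2354 and for Usp17ld 99 of 1938.

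Levels are the authors' values, read as FPKM, that is fragments scaled by the length of the transcript and the depth of the library. The deposited values summed to between 471595 in SO and 526316 in WT, and 11952 to 12577 genes per library reached 1. The targeted genes followed the labels, with Ldha at 154 FPKM in Ldha_KO and 1774 FPKM in WT, and Ldhb at 5.74 FPKM in Ldhb_KO and 76.5 FPKM in WT. The stem cell markers Pou5f1, Sox2, Nanog, Klf4, Esrrb and Zfp42 each stood at 124 FPKM or more in every library. Differences are on the log2(FPKM + 1) scale, which understates the change of genes at low levels. A gene was called higher or lower at a difference of 1, which is 2-fold on that scale. Each group had a single library, so no replicate check and no p-value could be had, and each difference compares libraries, not conditions.

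Usp17l transcripts stood high in SO and Ldha_KO and low in Ldhb_KO and WT, in each of the 5 genes. Summed over the family, the level was 30.2 FPKM in SO, 23.7 FPKM in Ldha_KO, 2.95 FPKM in Ldhb_KO and 3.35 FPKM in WT. In SO that was 9.01 times and in Ldha_KO 7.08 times the level in WT, and in Ldhb_KO 0.882 times. On the log2(FPKM + 1) scale the differences from WT were 2.84 in SO, 2.51 in Ldha_KO and -0.14 in Ldhb_KO. The sum in SO and Ldha_KO exceeded the levels of 87.1% and 84.3% of all genes, against 58.4% in Ldhb_KO and 61.3% in WT. This sets a sum of 5 genes against single genes. The single members exceeded 52.0% to 71.7% of all genes in SO and 52.0% to 71.0% in Ldha_KO. In Ldhb_KO the range was 41.8% to 48.8%, and in WT 44.5% to 51.2%. In bulk samples, more cells with these transcripts and more transcript per cell cannot be told apart.

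**Figure D1:**
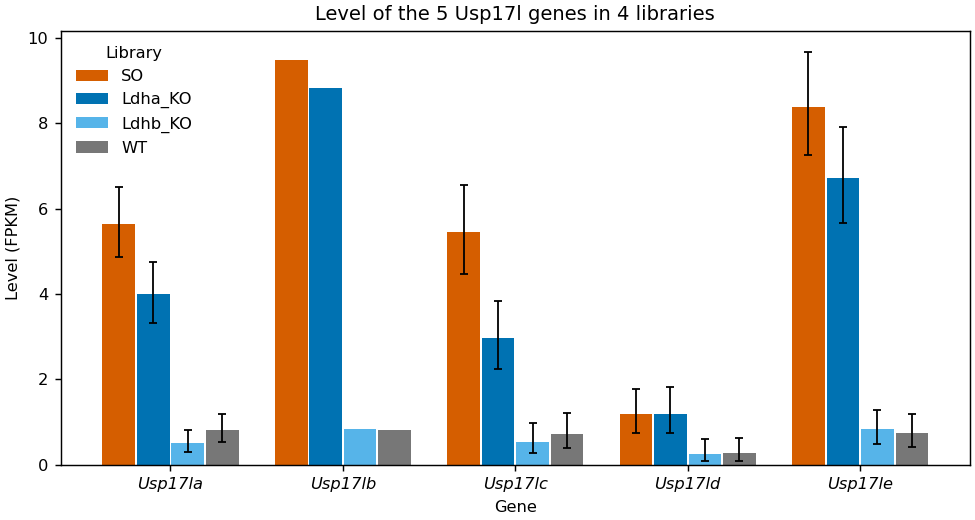
Level in FPKM (vertical axis, from 0) of each Usp17l gene in SO, Ldha_KO, Ldhb_KO and WT, 1 bar per library. Error bars are 95% Poisson intervals on the read numbers recovered for 4 genes and cover counting error only; Usp17lb has none. In every gene the SO and Ldha_KO bars stand above the Ldhb_KO and WT bars, from 1.19 against 0.257 and 0.270 in Usp17ld to 9.49 and 8.83 against 0.829 and 0.815 in Usp17lb.

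Usp17la, which encodes DUB-1, was at 5.64 FPKM in SO, 3.99 FPKM in Ldha_KO, 0.502 FPKM in Ldhb_KO and 0.808 FPKM in WT. Usp17lb, annotated as Dub1a, had the highest level of the family, with 9.49 FPKM in SO, 8.83 FPKM in Ldha_KO, 0.829 FPKM in Ldhb_KO and 0.815 FPKM in WT. Both genes were thus high in the same 2 libraries, and Usp17lb also had the largest ratios to WT of the family, 11.7 in SO and 10.8 in Ldha_KO. Usp17lc, which encodes DUB-2, was at 5.44 FPKM in SO, 2.97 FPKM in Ldha_KO, 0.541 FPKM in Ldhb_KO and 0.724 FPKM in WT. Usp17ld, annotated as Dub2a, was the lowest, with 1.19 FPKM in both SO and Ldha_KO, 0.257 FPKM in Ldhb_KO and 0.270 FPKM in WT. Usp17le, annotated as Dub3, was at 8.39 FPKM in SO, 6.71 FPKM in Ldha_KO, 0.826 FPKM in Ldhb_KO and 0.732 FPKM in WT. All members thus lay below 1 FPKM in Ldhb_KO and WT and above it in SO and Ldha_KO.

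Low FPKM values step by the worth of 1 read, which allowed read numbers to be recovered for 4 of the 5 genes. The relative worth of 1 read came from genes below 0.2 in both libraries, and put the depths of SO, Ldha_KO and Ldhb_KO at 1.046, 0.995 and 1.052 times that of WT. Usp17la values then matched 190 reads in SO, 128 in Ldha_KO, 17 in Ldhb_KO and 26 in WT, and Usp17le values 192, 146, 19 and 16. Usp17lc matched 110, 57, 11 and 14 reads, and Usp17ld 23, 22, 5 and 5. These are the smallest whole numbers that fit, within 0.02% in SO and 0.25% in the knockouts, and multiples of them would fit as well. Of 998 genes at like levels, 50.8% gave whole numbers in this way, and 12.8% did when the ratio for SO was moved by 1%, so single read numbers remain estimates. Usp17lb gave no whole numbers and has no interval. Intervals below rest on these reads and cover counting error only, not the spread between cultures.

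In SO against WT, the ratios and 95% intervals were 6.99 (4.62 to 11.0) for Usp17la, 7.51 (4.29 to 14.2) for Usp17lc, 4.40 (1.64 to 14.8) for Usp17ld and 11.5 (6.88 to 20.5) for Usp17le. None of these intervals reaches 1, and they overlap one another. Overlap alone does not show that the ratios are alike, and whether they differ between members was not tested. Usp17lb has no interval to compare. Of the 5 genes, 4 were called higher, and Usp17ld at a difference of 0.78 was not. Among all 13142 genes that reached 1 in at least 1 library, 2.69% were called higher and 0.472% lower. The members passed this filter only through SO and Ldha_KO, so their count is a description. Without the filter 1.40% of all 25170 genes were called higher. The summed reads of the 4 genes, 515 in SO and 61 in WT, gave a ratio of 8.07 (6.18 to 10.7). Over all genes, 12 lay at or above the 2.53 of Usp17lb, itself included.

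In Ldha_KO against WT, the ratios were 4.95 (3.23 to 7.86) for Usp17la, 4.09 (2.25 to 7.95) for Usp17lc, 4.42 (1.63 to 14.9) for Usp17ld and 9.17 (5.46 to 16.5) for Usp17le. The intervals again lie above 1 and overlap. Usp17la, Usp17lb, Usp17lc and Usp17le were called higher, with differences of 1.47, 2.44, 1.20 and 2.16, and Usp17ld at 0.79 was not. The share of kept genes that were called higher was 2.65%. The 4 genes with recovered reads had 353 reads in Ldha_KO and 61 in WT, a ratio of 5.81 (4.42 to 7.76). This comparison and the one before share the WT library.

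In Ldhb_KO against WT, no member was called in either direction, where 3.36% of the genes kept were called higher and 1.09% lower. All members lay below 1 FPKM in both libraries, and with a pseudocount of 1 no such pair of values can differ by 1. The absence of calls is thus fixed by the low levels and is no result beside these shares. Usp17lb and Usp17le were slightly higher in Ldhb_KO and Usp17la, Usp17lc and Usp17ld lower, with differences between -0.27 and 0.08. Summed over the 4 genes with recovered reads there were 52 reads in Ldhb_KO and 61 in WT. The ratio was 0.810 with an interval of 0.549 to 1.19, which holds 1. A difference between Ldhb_KO and WT was therefore not detectable at this depth. The upper bound of the interval, 1.19, lies below the lower bounds for the same 4 genes against WT, 6.18 in SO and 4.42 in Ldha_KO. All of these ratios share the WT library, and their intervals cover counting error only.

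**Figure D2:**
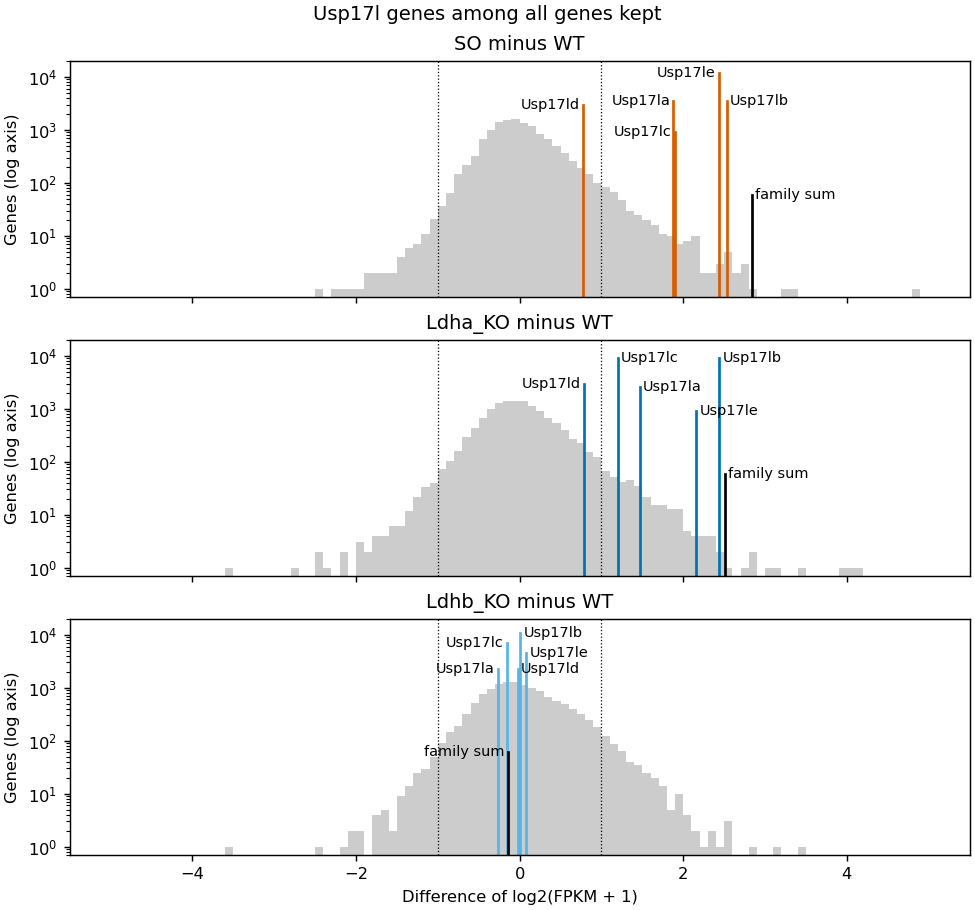
Difference of log2(FPKM + 1) from WT (horizontal axis) for all 13142 genes kept (grey histogram, log count axis), with the 5 Usp17l genes and the family sum as lines whose height has no meaning, for SO, Ldha_KO and Ldhb_KO. Dotted lines mark the 2-fold rule at -1 and 1. The family sum stands at 2.84 and 2.51 in SO and Ldha_KO and at -0.14 in Ldhb_KO, inside the bulk of the genes.

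Ldha_KO and Ldhb_KO were also set against each other, which avoids the WT library. The family sum differed by 2.64, with 23.7 FPKM in Ldha_KO and 2.95 FPKM in Ldhb_KO, and 10 kept genes differed as far or further in that direction. The pseudocount weighs less on a sum than on a single gene, so this count favours the sum. For Usp17lb alone the count was 11, itself included. The 4 genes with recovered reads had 353 reads in Ldha_KO and 52 in Ldhb_KO, a ratio of 7.18 (5.35 to 9.80). The same 4 members were called higher, with differences of 1.73 for Usp17la, 2.43 for Usp17lb, 1.36 for Usp17lc and 2.08 for Usp17le, where 1.67% of kept genes were. The labels name no batch. Over the genes at the commonest ratio to WT, the worth of 1 read in SO followed that in WT closely (10th to 90th percentile from -0.012% to 0.004% around the median). It did so less closely in Ldha_KO (-0.136% to 0.221%) and Ldhb_KO (-0.096% to 0.219%). Each library was compared with WT only, so how closely the 2 knockouts follow each other was not measured. The part of this looser match in the results was not tested.

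The members' shares of the family sum were as follows. Usp17lb made up 31.5% in SO, 37.3% in Ldha_KO, 28.1% in Ldhb_KO and 24.3% in WT, and Usp17le 27.8%, 28.3%, 28.0% and 21.9% in the same order. Usp17la made up 18.7%, 16.9%, 17.0% and 24.1%, Usp17lc 18.0%, 12.5%, 18.3% and 21.6%, and Usp17ld 3.9%, 5.0%, 8.7% and 8.1%. Whether these proportions differed between libraries was not tested. Levels in SO over those in Ldha_KO gave ratios of 1.41 (1.12 to 1.78) for Usp17la and 1.84 (1.32 to 2.57) for Usp17lc, so both stood higher in SO beyond counting error. For Usp17le the ratio was 1.25, with an interval whose upper bound was 1.56 and whose lower bound rounds to 1, at the edge of an equal level. For Usp17ld it was 0.995 (0.530 to 1.87), and a difference was not detectable at this depth. The summed reads of these 4 genes, 515 in SO and 353 in Ldha_KO, gave 1.39 (1.21 to 1.59). That ratio leaves out Usp17lb, the largest member, whose levels lay closer together, at 9.49 FPKM in SO and 8.83 FPKM in Ldha_KO. It is therefore no ratio of the whole family, which summed to 30.2 FPKM in SO and 23.7 FPKM in Ldha_KO.

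Ubiquitin-specific proteases outside the family were taken by symbol, as Usp followed by a digit, plus Cyld. Usp6nl entered the list in this way, and whether each listed gene encodes such a protease was not checked. Of 52 such genes 50 were kept, and 0 were called in either direction in SO, Ldha_KO or Ldhb_KO against WT. Over all kept genes 2.69%, 2.65% and 3.36% were called higher and 0.472%, 1.06% and 1.09% lower, so 0 of 50 lies near these shares. When all libraries were given the same sum as WT, 1 was higher in Ldha_KO. With a pseudocount of 0.1, 1 was higher in Ldha_KO and 1 lower in Ldhb_KO. The median differences of the 50 genes were -0.07, 0.01 and -0.10, beside -0.04, -0.03 and -0.02 over all kept genes. Their differences ran from -0.50 to 0.64 in SO and from -0.56 to 0.89 in Ldha_KO, beside 0.78 to 2.53 and 0.79 to 2.44 for the Usp17l genes. The highest in Ldha_KO was Usp26, an X-linked gene of the testis, at 1.12 FPKM in SO, 3.55 FPKM in Ldha_KO, 0.454 FPKM in Ldhb_KO and 1.45 FPKM in WT. It was the only one called between the knockouts, at 1.65. Usp19, an enzyme of the endoplasmic reticulum, was at 20.4 FPKM in Ldhb_KO against 40.5 FPKM in WT. Usp7, which acts on p53 and its ligase Mdm2, was at 94.8, 92.3, 77.8 and 125 FPKM in SO, Ldha_KO, Ldhb_KO and WT, and Usp46 at 10.5, 8.14, 7.60 and 12.5 FPKM.

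The family ranked higher within its class in SO and Ldha_KO. In SO 12 of the 52 other Usp genes had a level above the summed Usp17l family, and in Ldha_KO 16 did, against 43 in Ldhb_KO and 41 in WT. No single member ranked that high. Above the highest member stood 29 of the 52 in SO and 31 in Ldha_KO, against 49 in Ldhb_KO and 48 in WT.

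Deubiquitinases of other protease classes gave 34 kept genes of 35. Against WT 2 were higher in Ldha_KO and 0 were called in SO or Ldhb_KO, although 1 was higher in Ldhb_KO under both rescalings. Of all kept genes 2.65% were higher in Ldha_KO. The 2 genes of this list were Otud6a and Yod1, an enzyme that helps clear proteins from the endoplasmic reticulum. Otud6a was at 8.52 FPKM in Ldha_KO and 2.29 FPKM in WT, and Yod1 at 5.49 FPKM in Ldha_KO and 1.72 FPKM in WT. Neither was called in SO, where Otud6a was at 4.77 FPKM and Yod1 at 1.82 FPKM. Mindy2 was at 1.87 FPKM and Otud1 at 7.85 FPKM in Ldha_KO, against 0.577 and 4.17 FPKM in WT. The list's median differences were -0.20, -0.14 and -0.13 in SO, Ldha_KO and Ldhb_KO. Between the knockouts Yod1 was higher in Ldha_KO, at 5.49 FPKM against 1.62 FPKM in Ldhb_KO, and Otub2 was lower, at 3.18 FPKM in Ldha_KO against 7.59 FPKM in Ldhb_KO, where 1.54% of kept genes were lower.

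**Figure D3:**
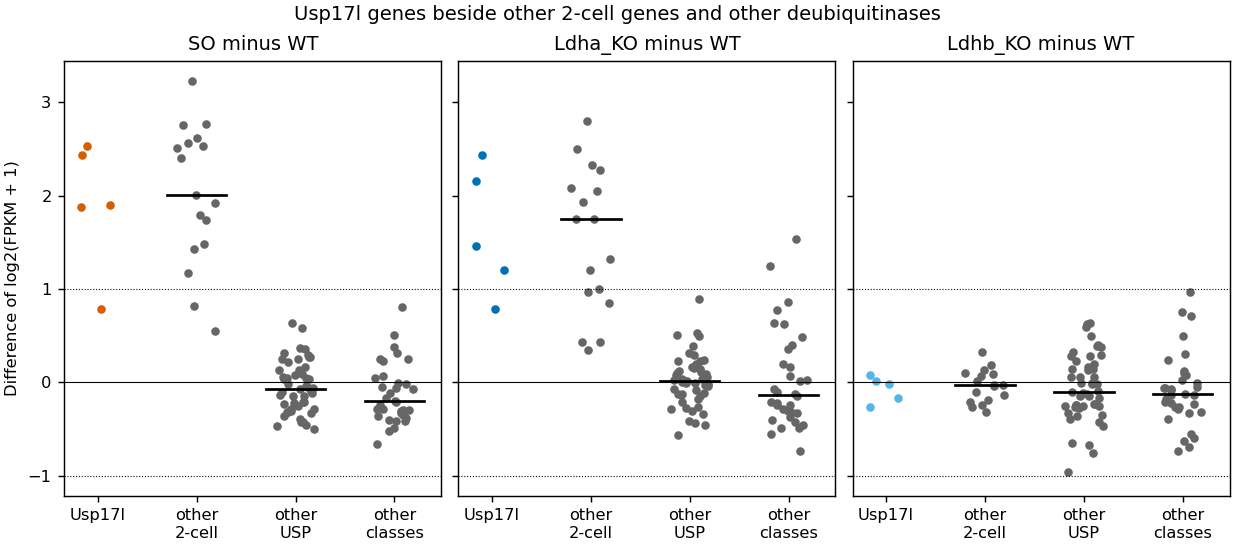
Difference of log2(FPKM + 1) from WT (vertical axis) for the 5 Usp17l genes, 17 other 2-cell genes, 50 other ubiquitin-specific proteases and 34 deubiquitinases of other classes, each point 1 gene, for SO, Ldha_KO and Ldhb_KO. Black bars are list medians, and dotted lines mark the 2-fold rule. The Usp17l points lie within the range of the other 2-cell genes in each panel, and in SO and Ldha_KO Usp17la, Usp17lb, Usp17lc and Usp17le lie above the highest of the other ubiquitin-specific proteases, at 0.64 and 0.89.

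Other genes of the 2-cell programme were higher in the same libraries as the family. This list was drawn up with earlier results of these data known, so its direction is no independent evidence. Of 27 names 26 were found and 17 kept, with 15 called higher in SO, 12 in Ldha_KO and none in Ldhb_KO against WT, and none lower, where 2.69%, 2.65% and 3.36% of kept genes were called higher. The median differences were 2.01, 1.75 and -0.02. Of the 17 genes 7 lay below 1 FPKM in both Ldhb_KO and WT and were kept for their values in SO or Ldha_KO alone, which makes these counts and medians a description. Of the other 10 genes, 10 were higher in SO and 9 in Ldha_KO. Gm5662 was at 29.1 FPKM in SO, 21.4 FPKM in Ldha_KO, 2.37 FPKM in Ldhb_KO and 2.21 FPKM in WT. Between the knockouts 11 of the 17 were higher in Ldha_KO.

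By the distance between level profiles over the 4 libraries, each centred on its own mean on the log2(FPKM + 1) scale, the 8 genes most like the family sum were Gm2016, Gm8300, Gm2022, Gm5662, Zscan4d, Gm21761, Zscan4c and Zscan4a. Their distances were 0.11 to 0.60, against a median of 2.80 over 13137 genes. Gm2016, the closest, was at 25.5 FPKM in SO, 21.1 FPKM in Ldha_KO, 2.25 FPKM in Ldhb_KO and 2.91 FPKM in WT, and Gm8300 at 22.0, 17.8, 2.02 and 2.77 FPKM. Gm2022 was at 12.3, 8.42, 0.905 and 0.952 FPKM in the same order. Among the Zscan4 genes, which encode zinc finger proteins linked to telomere maintenance, Zscan4c was at 16.9, 10.6, 2.06 and 2.03 FPKM and Zscan4d at 14.5, 10.5, 1.92 and 1.72 FPKM. With a pseudocount of 0.1, 5 of the 8 stayed among the first 8. With 4 libraries the likeness rests on 4 points, and 7 of the 8 genes were in the list of 2-cell genes.

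**Figure D4:**
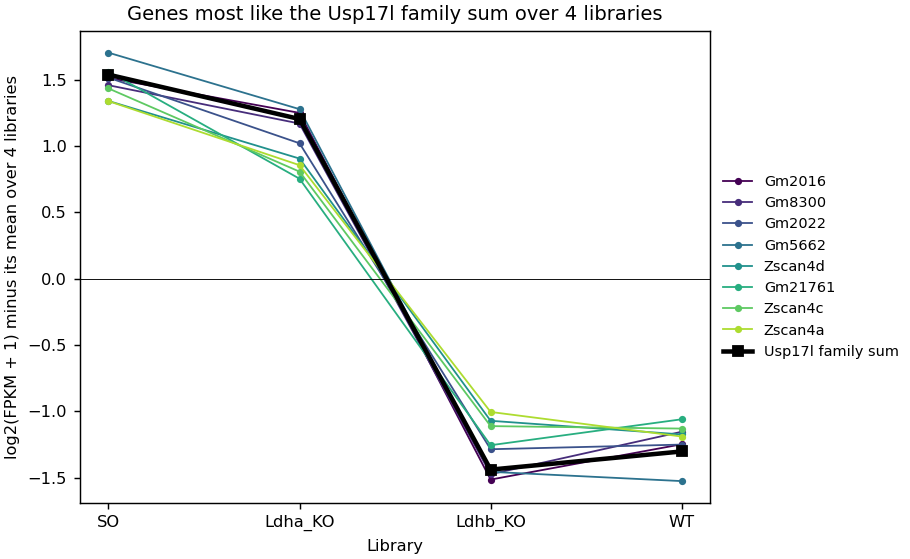
Level on the log2(FPKM + 1) scale minus its mean over 4 libraries (vertical axis) in SO, Ldha_KO, Ldhb_KO and WT, for the summed Usp17l family (black squares) and the 8 genes nearest to it. All 9 lines lie above 0 in SO and Ldha_KO and below 0 in Ldhb_KO and WT, at distances of 0.11 to 0.60 from the family.

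Most genes around the family on chromosome 7 were listed at 0. By the RefSeq order of GRCm38.p6, Usp17ld and Usp17lc stand apart from the group of Usp17le, Usp17lb and Usp17la, with 74 other genes of the tables between. The 10 nearest genes on either side of each member made a list of 47 genes, of which 45 were listed at 0 in all 4 libraries and none was kept. Over the whole stretch there were 101 genes that are not members, 81 of them olfactory receptors, and 92 were listed at 0 everywhere. The highest value of an olfactory receptor was 0.103 FPKM. Of the rest, Trim6, Trim12c and Trim34b were kept, members of a family of ubiquitin ligases with roles in antiviral defence, and none was called against WT. Trim6, known from embryonic stem cells, was at 85.2 FPKM in SO, 88.8 FPKM in Ldha_KO, 71.9 FPKM in Ldhb_KO and 95.3 FPKM in WT. Trim12c was at 5.09, 4.64, 3.10 and 3.84 FPKM and Trim34b at 1.17, 0.646, 0.999 and 1.17 FPKM. Of the genes of this stretch, those called higher in SO or Ldha_KO against WT were Usp17la, Usp17lb, Usp17lc and Usp17le.

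**Figure D5:**
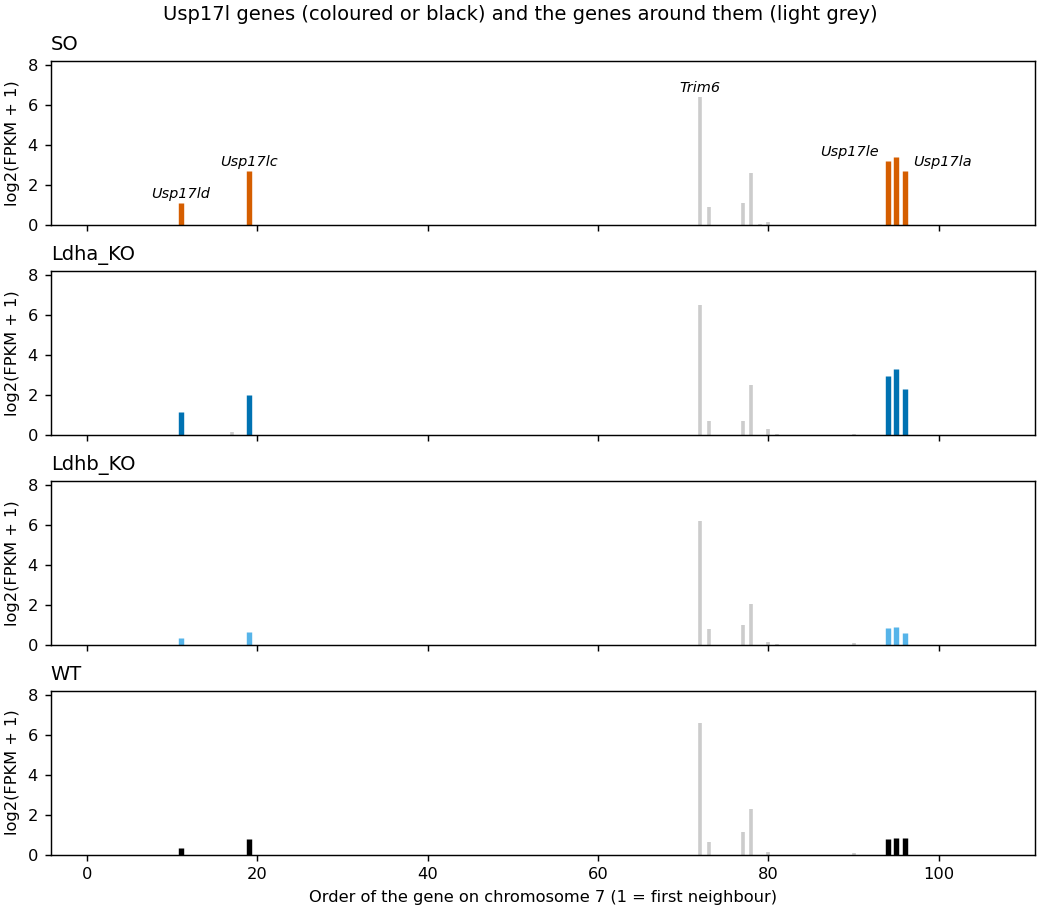
Level on the log2(FPKM + 1) scale (vertical axis) of the Usp17l genes (coloured, black in WT) and of 101 other genes (light grey) by their order on chromosome 7, in SO, Ldha_KO, Ldhb_KO and WT. The Usp17l genes stand up in SO and Ldha_KO among genes mostly at 0, and Trim6 stays between 71.9 and 95.3 FPKM.

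Dub-1 and Dub-2 are induced by cytokine receptors in mouse blood cells, so genes of that route were read beside the family. Of 13 receptor, Jak and Stat5 genes, 8 were kept. Against WT none was called in SO, 1 in Ldha_KO (Csf2ra, 6.59 FPKM against 2.67 FPKM in WT) and 2 in Ldhb_KO, and none was lower, where 2.65% of kept genes were higher in Ldha_KO and 3.36% in Ldhb_KO. The 2 were the transcription factors Stat5a, at 3.00 FPKM in Ldhb_KO and 0.996 FPKM in WT, and Stat5b, at 6.31 FPKM in Ldhb_KO and 2.45 FPKM in WT. In SO Stat5a was at 1.98 FPKM and Stat5b at 3.60 FPKM, and the kinase Jak1 was at 9.85, 16.8, 17.2 and 10.4 FPKM in SO, Ldha_KO, Ldhb_KO and WT. The list's median differences from WT were 0.38 in SO, 0.50 in Ldha_KO and 0.59 in Ldhb_KO. Any part of this route in the levels of the family was not tested.

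Of 7 blood cell markers Kit, which stem cells also express, was the highest. Without it the markers summed to 4.32 FPKM in SO, 6.13 FPKM in Ldha_KO, 5.01 FPKM in Ldhb_KO and 3.46 FPKM in WT. Of 6 feeder fibroblast markers Thy1 was the highest, and without it the others summed to 5.15, 4.39, 5.64 and 2.24 FPKM, with Postn listed at 0 in SO, Ldhb_KO and WT. Without Kit and Thy1, both sums were lowest in WT. With Kit kept, the blood cell markers summed to 28.8, 42.6, 23.8 and 21.3 FPKM in the same order, again lowest in WT. With Thy1 kept, the feeder markers summed to 47.1, 41.3, 51.8 and 49.6 FPKM, so SO and Ldha_KO then lay below WT. Thy1 itself was at 42.0, 36.9, 46.2 and 47.4 FPKM. Any part of these markers in the results was not tested.

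Transcripts of proteins described as substrates of USP17 enzymes, mostly in human cells, were read as well. Of 6 genes 5 were kept, with median differences of -0.01 in SO, -0.09 in Ldha_KO and -0.39 in Ldhb_KO. Of these, 1 was called, Ddx58, which encodes the RNA sensor RIG-I. It was at 11.4 FPKM in Ldha_KO against 28.7 FPKM in WT, lower by -1.26, where 1.06% of kept genes were lower. It was at 15.8 FPKM in SO and 14.7 FPKM in Ldhb_KO, neither of which was called. Cdc25a, a phosphatase that drives the cell cycle, was at 36.7, 46.0, 32.7 and 50.3 FPKM in SO, Ldha_KO, Ldhb_KO and WT. Snai1, a transcription factor, was at 7.75, 5.13, 4.48 and 5.04 FPKM, and the protease Rce1 at 24.4, 23.1, 18.5 and 24.6 FPKM. Deubiquitinases act on proteins, and protein levels were not measured here.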

How the data were processed

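Polyadenylated RNA of 4 mouse embryonic stem cell libraries, 1 per group, was sequenced. The build was mm9 and the tools were edgeR 3.26.8, HTSeq 0.11.2, SAMtools 1.9 and Bowtie2 2.3.4.3, per the submitters' processing notes, which give no roles. The sources used here do not give the annotation or the depth. The deposited values were read as FPKM from the values alone, since they are not whole numbers and their totals differ. FPKM and RPKM could not be told apart.

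Differences of log2(FPKM + 1), pseudocount 1, were taken over 13142 genes with at least 1 in at least 1 of the 4 libraries, and called at 1. Other pseudocounts, filters and scalings were tried. Read numbers up to 40 in WT were searched, and 95% intervals are exact (Poisson, and Clopper-Pearson for ratios). Named genes were the members, the 8 most alike and up to 4 per list with the largest difference from WT. Otub2 and the Trim genes were named after their values were seen. Coding sequences were compared in place of proteins. Ratios of SO to Ldha_KO, and list counts without genes below 1 in both Ldhb_KO and WT, were added after seeing the data. The members and lists were chosen with earlier results of these data known. Sequences came from RefSeq (GRCm38.p6) and GENCODE M21 (Biopython 1.88). Calls and read recovery were tested on simulated data. Python 3.11.15, pandas 2.3.3 and scipy 1.17.1 were used. The level of 1 marker gene is not reported here.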

Additional observations from a re-analysis of the deposited data

Results flagged for a closer look

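The family sum moved up against WT in SO and Ldha_KO and slightly down in Ldhb_KO. On the log2(FPKM + 1) scale, the difference from WT in SO exceeded that in Ldhb_KO by 2.98, and that in Ldha_KO exceeded it by 2.64. Usp17la showed the same opposite directions, with gaps of 2.14 for SO and 1.73 for Ldha_KO. Usp17lc did so with gaps of 2.06 and 1.36. With 1 library per group these differences were not tested. The downward side rests on small values: Usp17la had 17 reads in Ldhb_KO and 26 in WT, and Usp17lc 11 and 14, and the counting intervals of both ratios hold 1 (0.316 to 1.19 and 0.307 to 1.77).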

How the results depend on the processing

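The family sum kept its direction and its side of the 2-fold rule in all 24 alternative values. The changes of filter do not enter the difference of the sum or of a member, so those values only repeat the main ones. The differences from WT ran from 2.62 (without Usp17lb) to 3.13 (pseudocount of 0.1) in SO, from 2.17 to 2.79 in Ldha_KO and from -0.18 to -0.05 in Ldhb_KO. Of 96 alternative values of single members, 93 kept their call, and with a pseudocount of 0.1 Usp17ld was called higher, at 1.80 in SO and 1.81 in Ldha_KO against WT and 1.86 in Ldha_KO against Ldhb_KO. The background moved more. With that pseudocount 808 genes were higher and 182 lower in SO, 868 and 321 in Ldha_KO, 1141 and 311 in Ldhb_KO, and 419 and 574 in Ldha_KO against Ldhb_KO, because smaller values then count. With a filter of 5 fewer genes are tested, and 234 were higher and 40 lower in SO and 262 higher in Ldhb_KO. Rescaling to the summed value of WT raised the higher share of called genes to 83.3% from 71.5% in Ldha_KO and to 86.4% from 75.5% in Ldhb_KO. Of 240 counts for gene lists 227 stayed within 1.5 times, and the other 13 moved by 1 or 2 genes. Part of the 227 was fixed in advance. The list of chromosomal neighbours had 0 kept genes and so could only give 0, and lifting the filter cannot add a call with a pseudocount of 1. With a filter of 5, 1 of the receptor, Jak and Stat5 genes was still called in Ldhb_KO and no other ubiquitin-specific protease between the knockouts. No paired analysis was possible because each group had 1 library. The read numbers, 5 to 26 in WT, limit the members' ratios.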
